A study of Mus musculus with 2343 samples.

Results

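Single wild-type (WT) cortical thymic epithelial cells (cTECs) were compared with single WT medullary thymic epithelial cells of the mTEChi gate, a subset of medullary cells rich in MHC class II at the surface. Cells with at least 50000 gene counts and 1000 detected genes were kept. This left 70.8% of the WT cTECs and 57.7% of the WT mTEChi cells, together 558 of the 2273 single cells of the series. The series holds single cells, small pools, bulk RNA and chromatin libraries of mouse thymic epithelium in strains with floxed Eed, the gene of a Polycomb repressive complex 2 (PRC2) subunit. The WT cTECs came from a strain labelled Eedflfl and the WT mTEChi cells from a strain labelled Eedflfl::ZsGreen. Both were labelled ZsGreen negative, neither label carries a Cre driver, and both groups share the floxed Eed alleles. The strain names of the cells labelled Eed add beta5tCre, a Cre named for the thymoproteasome gene Psmb11. They read Eedflfl::beta5tCre for Eed cTECs and Eedflfl::ZsGreen::beta5tCre for Eed mTEChi cells, which were sorted as ZsGreen positive or negative. The labels used here give no age, no sex and no animal.

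The thymic cortex receives T cell precursors and holds them through Notch ligands, cytokines and chemokines. cTECs then display self-peptides that positively select the maturing thymocytes, and they carry their own peptide-making machinery: the thymoproteasome subunit Psmb11 and the proteases Prss16 and cathepsin L. Selected thymocytes move to the medulla, where mTECs under the control of Aire and Fezf2 transcribe genes of many peripheral tissues, so that self-reactive thymocytes meet those antigens and are deleted or diverted.

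The cTECs and the mTEChi cells were processed as separate sets. The cTECs filled 1 set of wells, and the mTEChi cells were spread over 4 plates named SCGC1373, SCGC1379, SCGC1380 and SCGC1381, with 48, 51, 110 and 77 cells kept, so the cTECs were the other cells of the 558. Set and cell type can therefore not be told apart, and with no animal named each group counts as 1 sample. No test between the groups was possible, and the spread over the 4 mTEChi plates is the only spread between parts of a group in this comparison. The median depth was 538740 gene counts per cTEC and between 226123 and 373380 per mTEChi cell on the plates. Spike-in RNA (ERCC) took 0.0934% of all reads of the kept cTECs and 31.7% to 37% on the mTEChi plates. Reads outside annotated genes made up 24.7% of the other reads in cTECs and 14.1% to 16.5% on the mTEChi plates. Of 14 wells labelled as without template, all on the mTEChi plates, 11 held few gene counts. The 3 wells A1, A2 and A3 of plate SCGC1380 held 51838, 73567 and 67466 and would have passed the filter as cells. Whether the well labels of that plate are shifted or exchanged is not known, which would change which of its cells are WT mTEChi cells, so counts of genes are also given without it.

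The gates were checked with 10 cortical and 10 medullary markers, each scored in a cell at 10 CPM (gene counts scaled to a total of 1000000) or more. A cTEC had a median of 7 cortical and 1 medullary marker, and 97.1% of cTECs had more cortical ones. An mTEChi cell had a median of 3 cortical and 5 medullary markers, and 85.7% had more medullary ones, with 81.2% to 88.2% on the plates. There were 7 cTECs with more medullary markers and 16 mTEChi cells with more cortical ones, and all were kept. Ptprc, the pan-leukocyte gene that encodes CD45, reached 10 CPM in 11 cTECs and 16 mTEChi cells. Xist, the RNA that coats the inactive X chromosome, had reads in 93.8% of cTECs and 94.4% of mTEChi cells, and Y-linked genes reached 10 CPM in 2 and 3 cells.

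**Figure D1:**
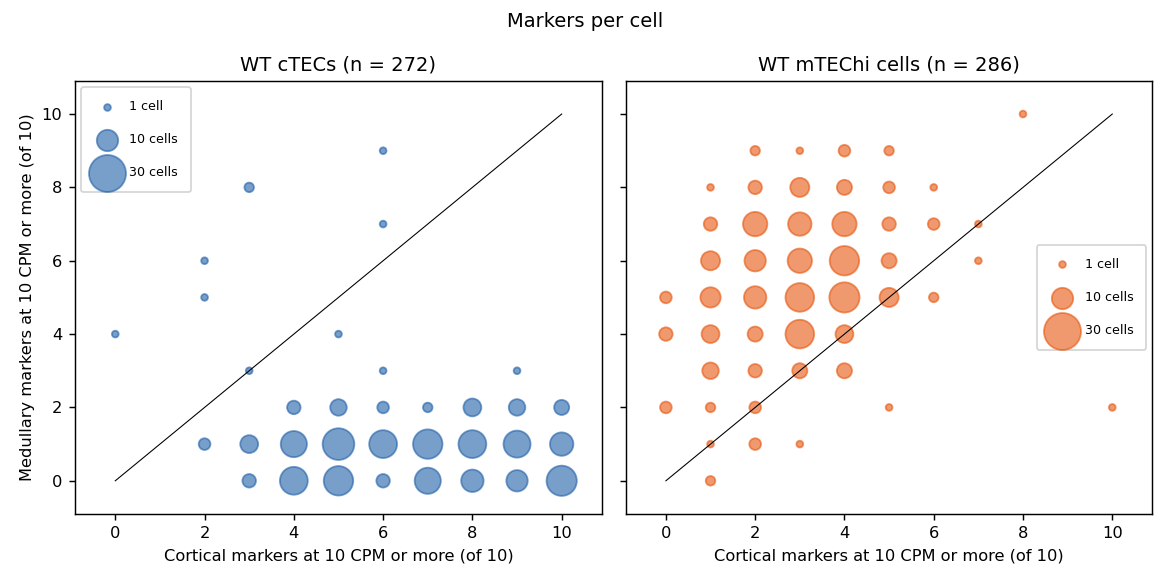
Number of cortical markers (x axis) against number of medullary markers (y axis) at 10 CPM or more in each kept WT cTEC (left) and WT mTEChi cell (right), with point area proportional to the number of cells and the line of equal numbers. Most cTECs lie below the line with 0 to 2 medullary markers, and most mTEChi cells lie above it.

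Gene counts were summed over the cells of each group and scaled to CPM, and a log2 difference is log2(CPM + 1) in cTECs minus that in mTEChi cells, so positive values are higher in cTECs. A gene was counted as higher in one group when the difference was at least 4-fold on this scale against the mTEChi sum and against each of the 4 plates, in the same direction. Genes at 5 CPM or more in either group were compared. A gene under 5 CPM in 1 group entered only through its level in the other, which fixes the sign of its difference. Of 14279 genes compared, 664 were higher in cTECs (4.65%) and 1045 were higher in mTEChi cells (7.32%). Against the mTEChi sum alone the counts were 1322 (9.26%) and 2742 (19.2%), and the median log2 difference of all compared genes was 0.17. Without plate SCGC1380 the counts were 769 and 1151.

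The genes furthest above mTEChi cells in cTECs included matrix proteins, a chemokine, a chemokine-scavenging receptor and a sodium channel. Cxcl12, the chemokine that binds CXCR4 on thymocyte precursors, had 2096 CPM in cTECs and 23.4 CPM on plate SCGC1373, 2.76 on plate SCGC1379, 42.3 on plate SCGC1380 and 5.78 on plate SCGC1381. The log2 difference was 6.60, and 51.1% of the mTEChi reads came from 1 cell. Ackr4, the atypical receptor that takes up CCL19, CCL21 and CCL25, stood at 760.6 CPM in cTECs against 4.99 to 40.2 CPM on the plates (log2 5.85). Scn1a, a voltage-gated sodium channel known from neurons, had 270.6 CPM in cTECs and 0.101 CPM in mTEChi cells, where all of its reads came from 1 cell. Fmod and Prelp, small leucine-rich matrix proteins, Clec11a, a secreted growth factor, and Serpinh1, the collagen chaperone, stood at 236.5, 576.5, 87.6 and 226.6 CPM in cTECs. None of those 4 exceeded 12.4 CPM on any mTEChi plate. The others among the 15 leading genes were Gnai1, Glrb, Snhg11, Pmp22, Hic1, Rn7s1, Trim12a and Trim30d. Rn7s1 is a gene of the signal recognition particle RNA. Trim12a, a member of the Trim5-like family, had 77.2 CPM in WT cTECs, no read in mTEChi cells and only 0.331 CPM in Eed cTECs.

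The genes furthest above cTECs in mTEChi cells included secreted products of gut, liver and neuroendocrine tissue, and Aire itself. Aire, the regulator of promiscuous transcription in mTECs (chromosome 10, 78030022 to 78043610, GRCm38), had 5.58 CPM in cTECs (95% counting interval 5.19 to 5.98) and 954.03 CPM in mTEChi cells (947.6 to 960.5), with 655.3 CPM on plate SCGC1373, 863.9 on plate SCGC1379, 1048 on plate SCGC1380 and 1091 on plate SCGC1381. The plates differed by less than 2-fold among themselves, and the log2 difference was -7.18. Lyz1, the Paneth cell lysozyme, led the list with 0.565 CPM in cTECs and 66.8, 522.3, 702.6 and 1321 CPM on plates SCGC1373, SCGC1379, SCGC1380 and SCGC1381 (log2 -8.87). Calcb and Calca, the calcitonin gene family peptides, had 1069.7 and 388.5 CPM in mTEChi cells and 6.09 and 0.731 CPM in cTECs. Cyp26a1, which degrades retinoic acid, had 307.8 CPM in mTEChi cells and 0.0362 in cTECs. The remaining genes of the 15 were Spp1, Apoa4, Apoa1, Reg3g, Serpinb12, Madcam1, Saa1, Saa3, Lyz2 and a clone-named gene without a symbol. Spp1, the matrix protein osteopontin, varied widely between plates, from 5.07 to 855.6 CPM, and 34.6% of its reads came from 1 cell. After thinning every cell to the same number of counts, it missed the fold on at least 1 plate.

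**Figure D2:**
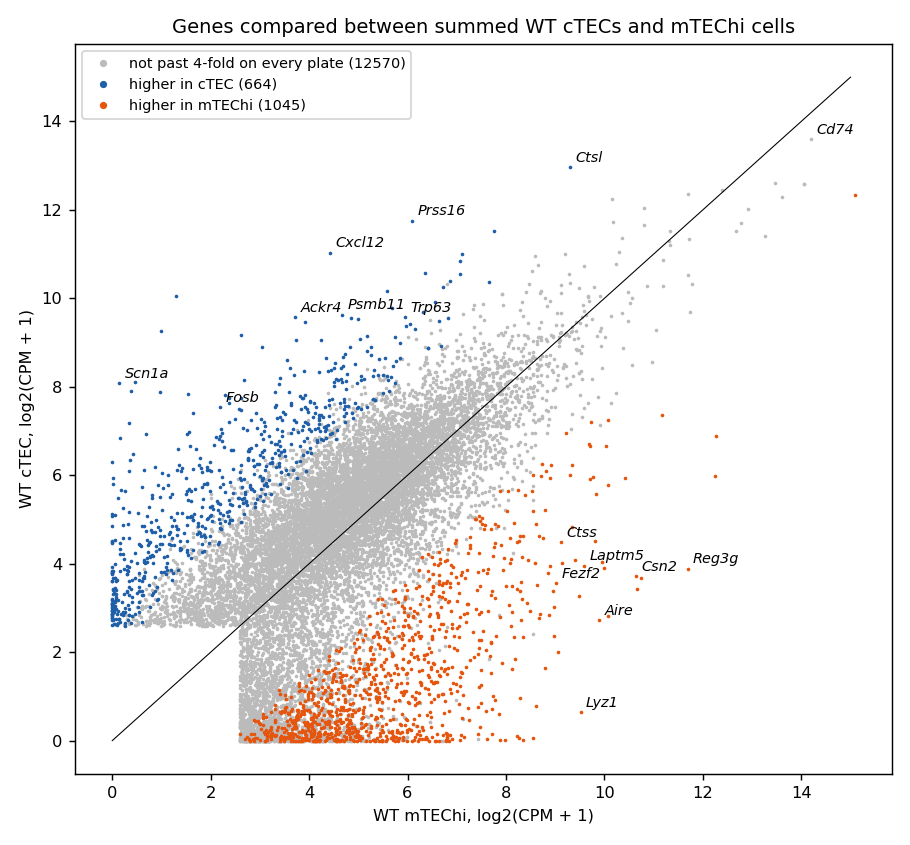
Level of each of the 14279 compared genes in summed WT mTEChi cells (x axis) and summed WT cTECs (y axis), both as log2(CPM + 1), with 664 genes higher in cTECs in blue, 1045 higher in mTEChi cells in orange and the line of equal levels. Cxcl12, Scn1a and Prss16 stand far above the line, Aire, Lyz1 and Reg3g far below it, and Cd74 close to it.

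Some genes were read in nearly all cells of one set and in few of the other. Among compared genes, 14 had a read in at least 90% of cTECs and at most 5% of mTEChi cells, and 13 of these 14 were not RefSeq protein-coding genes. The coding one was Prelp. In the other direction there were 3 such genes, none of them protein coding. Gm10123, a predicted gene, had a read in 0.368% of cTECs and 95.8% of mTEChi cells, and 0.0491 against 219.8 CPM in the Eed pair. Pseudogenes were 11.4% of the genes higher in cTECs, 4.59% of those higher in mTEChi cells and 2.39% of all compared genes. RefSeq protein-coding genes were 77.7% of the genes higher in cTECs, 89.2% of those higher in mTEChi cells and 92.9% of all compared genes. The spike-in share and the share of reads outside genes, given above, also differed between the sets, and their part in these counts was not tested.

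Promoter windows of 2 genes from each side are shown as examples that hold the letters of a regulator known for that side, so they do not stand for the side. The binding letters of both regulators are well described: FOXN1, the master factor of thymic epithelium, and the NF-kB factors that drive mTEC maturation. The windows run from 250 bases before to 50 bases after the transcription start (RefSeq, GRCm38.p6), with GACGC, the FOXN1 core, or an NF-kB site (GGGA and CC with any 4 bases between them) in capitals, searched on both strands. Psmb11 (chr14:54625060-54625359, plus strand) and Cxcl12 (chr6:117168285-117168584, plus strand) were higher in cTECs, and Cd80 (chr16:38458683-38458982, plus strand) and Irf4 (chr13:30748983-30749282, plus strand) in mTEChi cells.
Psmb11: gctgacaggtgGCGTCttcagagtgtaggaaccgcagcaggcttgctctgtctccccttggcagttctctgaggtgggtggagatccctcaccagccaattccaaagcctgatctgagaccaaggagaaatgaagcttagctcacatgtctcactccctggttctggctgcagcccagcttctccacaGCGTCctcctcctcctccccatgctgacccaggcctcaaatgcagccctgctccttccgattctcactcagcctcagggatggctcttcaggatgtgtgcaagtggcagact
Cxcl12: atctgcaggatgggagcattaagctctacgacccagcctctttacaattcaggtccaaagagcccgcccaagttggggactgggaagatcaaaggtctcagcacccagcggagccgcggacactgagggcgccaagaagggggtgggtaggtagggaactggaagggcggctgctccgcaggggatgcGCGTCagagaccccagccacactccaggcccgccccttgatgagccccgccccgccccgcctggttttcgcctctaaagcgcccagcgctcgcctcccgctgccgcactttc
Cd80: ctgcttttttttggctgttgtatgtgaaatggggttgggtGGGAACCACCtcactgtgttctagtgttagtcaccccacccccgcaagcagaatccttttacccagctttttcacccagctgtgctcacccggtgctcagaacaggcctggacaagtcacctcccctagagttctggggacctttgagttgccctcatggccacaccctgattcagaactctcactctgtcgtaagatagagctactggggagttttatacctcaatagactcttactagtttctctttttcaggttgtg
Irf4: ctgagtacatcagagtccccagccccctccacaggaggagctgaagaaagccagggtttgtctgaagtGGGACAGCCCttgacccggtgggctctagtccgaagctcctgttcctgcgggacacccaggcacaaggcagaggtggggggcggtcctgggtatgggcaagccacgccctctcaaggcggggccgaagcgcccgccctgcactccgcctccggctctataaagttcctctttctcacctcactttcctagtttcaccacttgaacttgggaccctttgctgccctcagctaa
The Psmb11 window held GACGC at 2 places and the Cxcl12 window at 1, each time as its complement GCGTC. A window was on hand for 10405 of the compared genes. GACGC was in the windows of 44.7% of the genes higher in cTECs that had one, 26.7% of 722 genes higher in mTEChi cells and 47.3% of all compared genes. GACGC was thus rarest among genes higher in mTEChi cells, and genes higher in cTECs were close to all compared genes. The NF-kB letters were in 36.5%, 33.4% and 30.5% of the same sets, which lie close together. Over all 27025 genes with a window the shares were 29.6% for GACGC and 22.9% for the NF-kB letters. A match describes the letters and is not evidence of binding. The 4 windows shown all hold the letters named for their side, whereas other named genes held those of the opposite side: GACGC was in the windows of Aire, Tnfrsf11a and Fezf2, higher in mTEChi cells, and the NF-kB letters were at 3 places in that of Kitl and at 1 in that of Bmp4, higher in cTECs. Ctsl, Ly75 and Ackr4, higher in cTECs, and Ctss and Spib, higher in mTEChi cells, had neither run of letters in the window.

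Psmb11, Prss16, Ctsl and Ly75, which make or capture the peptides of positive selection, were higher in cTECs. They were 4 of 11 genes of cortical antigen processing compared, 0 were higher in mTEChi cells, and the median log2 difference was 0.81, against 0.17 for all compared genes. Psmb11, the thymoproteasome subunit beta5t (chromosome 14, 54625310 to 54629556), had 789.96 CPM in cTECs (785.3 to 794.7) and 0 CPM on plate SCGC1373, 5.47 on plate SCGC1379, 64 on plate SCGC1380 and 5.62 on plate SCGC1381. Plate SCGC1380 stood above the other plates, 71.8% of the mTEChi reads came from 1 cell, and the log2 difference of 4.96 was 6.58 without the highest cell of each group. Prss16, the thymus-specific serine protease (chromosome 13, 22002176 to 22009741), had 3443 CPM in cTECs and 34.4, 51.3, 124.6 and 29.5 CPM on the 4 plates in the same order (log2 5.66). Ctsl, cathepsin L, which cuts the invariant chain in cTECs, had 7995 CPM in cTECs and 329.6 to 797.3 CPM on the plates (log2 3.67). Ly75, the endocytic receptor CD205, was the fourth, at 465.6 against 62.1 to 100.4 CPM (log2 2.45). The rule for calling a gene required the cTECs to lie above every plate for these 4 genes, as for 4.65% of all compared genes.

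The genes of general autophagy and lysosomes did not separate the groups. Lamp2, a lysosomal membrane protein used in autophagosome fusion, came closest with 1725 CPM in cTECs and 399.7 CPM in mTEChi cells (log2 2.11) and missed 4-fold on plates SCGC1373 and SCGC1381. Ctsb and Ctsd, further cathepsins, differed by 0.14 and 0.76, and Atg5, Atg7 and Becn1, which form autophagosomes, by 0.26, -0.07 and -0.95.

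The beta5 position of the proteasome can hold any of 3 catalytic subunits. Psmb5, the constitutive subunit, had 94.2 CPM in cTECs and 165.7 to 209.7 CPM on the mTEChi plates (log2 -0.90). Psmb8, the immunoproteasome subunit beta5i, had 176.4 CPM in cTECs and 350.4 to 512.9 CPM on the plates (log2 -1.35). Both were lower in cTECs on every plate but under 4-fold, whereas Psmb11 was higher. Psmb9, another immunoproteasome subunit, went the other way at 385.5 against 143.4 to 163.5 CPM (log2 1.33).

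After thinning every cell to 50000 gene counts, Psmb11 had a read in 51.1% of cTECs (exact 95% interval 45% to 57.2%) and 5.59% of mTEChi cells (3.23% to 8.93%), against 63.2% and 6.29% unthinned. Prss16 was read in 92.3% and 30.8%, so a read of it was also common in mTEChi cells. At 10 CPM or more, 15 mTEChi cells held Psmb11, and 14 of these also held Aire at that level, as 240 mTEChi cells did in all (83.9%). By plate the cells with Psmb11 were 0, 1, 9 and 5 on SCGC1373, SCGC1379, SCGC1380 and SCGC1381, and those with both genes were 0, 1, 8 and 5. As shares of the kept cells of each plate, those with Psmb11 were 0%, 1.96%, 8.18% and 6.49%. Plate SCGC1380, which holds the 3 filled no-template wells, also had the most kept cells. No cTEC held both, among the 50.7% of cTECs with Psmb11 and 6 cTECs with Aire.

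**Figure D3:**
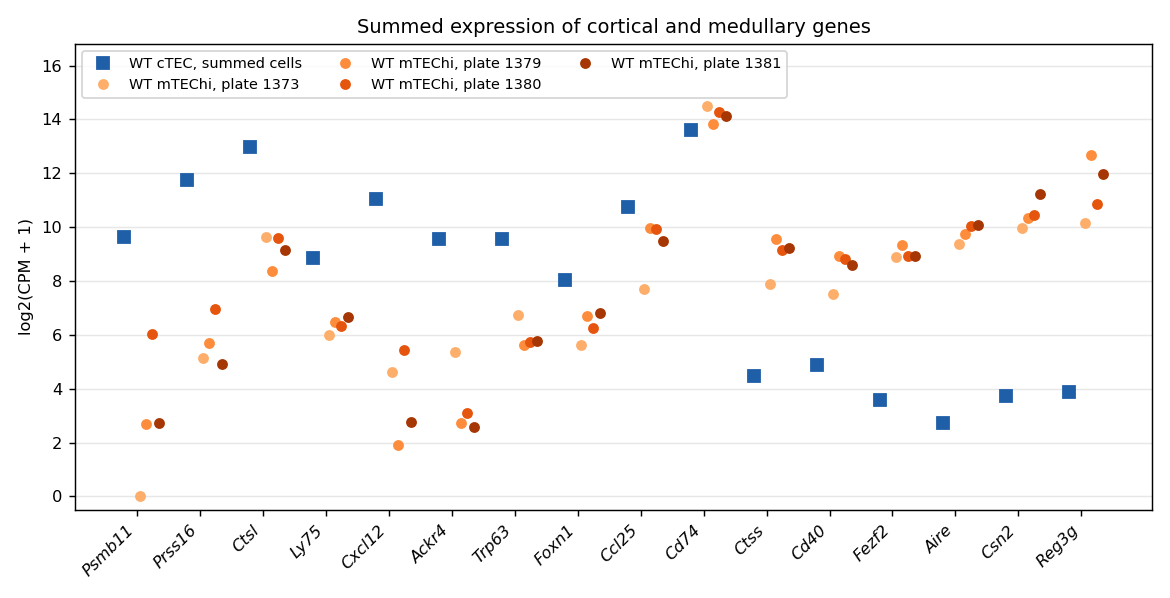
log2(CPM + 1) of 16 genes in summed WT cTECs (blue squares) and in summed WT mTEChi cells of each plate (orange circles, 1 per plate). Cortical genes on the left have the square above all 4 circles, Cd74 has them close together, and Ctss, Cd40, Fezf2, Aire, Csn2 and Reg3g have the square below all circles; for Psmb11 the circles spread from 0 on plate SCGC1373 to the highest on plate SCGC1380.

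Genes through which the cortex supports thymocytes were mixed. Of 15 compared, 4 were higher in cTECs and 2 in mTEChi cells (median log2 1.70). Besides Cxcl12, the genes higher in cTECs were Kitl, the stem cell factor for early thymocytes (196.9 against 7.7 to 32.2 CPM, log2 2.999), Bmp4, a morphogen of the thymic rudiment (log2 3.85), and Scx, a transcription factor known from tendon (log2 2.89). The growth factors Igf1 and Tgfb2 were lower in cTECs, at 12.7 against 148.3 to 241.5 CPM and 6.68 against 58.4 to 96.8 CPM. Scx missed the fold after thinning, and Scx, Igf1 and Tgfb2 missed it among cells with Xist and without Y-linked reads.

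Several genes known for the cortex did not pass the fold. Ccl25, the chemokine for CCR9 on thymocytes, had 1703 CPM in cTECs and 208.8 CPM on plate SCGC1373, 999.2 on plate SCGC1379, 968.5 on plate SCGC1380 and 713.4 on plate SCGC1381, and its log2 difference was 1.15. Plate SCGC1373 stood apart as the lowest. Dll4, the Notch ligand that commits precursors to the T lineage, had 93.4 CPM in cTECs and 8.73 to 49.7 CPM on the plates (log2 1.70). Il7, the cytokine of thymocyte survival, differed by 0.87 and overlapped, with 336.3 CPM in cTECs and 108.5 to 355.9 CPM on the plates. Tbata, a thymus gene without a settled role, stood at 1052 CPM in cTECs and 814.8 CPM in mTEChi cells (log2 0.37). Cd83, which stabilises MHC class II on the cTEC surface, had 214.8 CPM against 21.6 to 64.1 CPM and log2 2.18, short of 4-fold on 2 plates.

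Of 23 chemokine genes compared, 9 were higher in mTEChi cells and 2 in cTECs (median log2 -4.13). Cx3cl1, the membrane-bound ligand of CX3CR1, joined Cxcl12 on the cTEC side at 273.5 against 17.2 to 27.9 CPM (log2 3.60). On the mTEChi side, Cxcl9, a CXCR3 ligand, had 2.14 CPM in cTECs and 137.1, 439.2, 602.8 and 435.9 CPM on plates SCGC1373, SCGC1379, SCGC1380 and SCGC1381 (log2 -7.14). Ccl19, a ligand of CCR7 that draws selected thymocytes inward, had no read in any cTEC, which allows a share of up to 1.1% of cells with a read and sets no limit on cells that express it, and 15.1 to 33.3 CPM on the plates. Ccl5, Ccl9, Ccl27a, Ccl2, Cxcl2, Cxcl11 and Cxcl14 were the others. Ccl2 and Cxcl14 missed the fold when each gene's highest cell was left out of the cTECs, the mTEChi sum and each plate. Cxcl10, a further CXCR3 ligand, had a log2 difference of -2.49 and missed the fold on plate SCGC1373.

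Single cells weighed on some chemokine sums. Ccl22, a ligand of CCR4 made by mature mTECs, had 238.2 CPM in cTECs and 191.7 CPM in mTEChi cells, but 99.8% of the cTEC reads came from 1 cell. Without the highest cell of each group its log2 difference turned from 0.31 to -6.05. Ccl17, the other CCR4 ligand, was below 5 CPM in both groups, at 1.14 and 4.49, and was not compared. Ccl21a, a CCR7 ligand of immature mTECs with near-identical copies in the genome, had 0.29 and 4.72 CPM and was likewise not compared. Ccl20, the CCR6 ligand, ranged from 9.67 CPM on plate SCGC1379 to 994.2 on plate SCGC1381 and had 4.29 in cTECs, so it passed on 3 plates only.

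Of 16 transcription factors of thymus organogenesis and epithelium compared, 5 were higher in cTECs and 2 in mTEChi cells (median log2 1.68). Trp63, the p63 factor that maintains epithelial progenitors, had 758.5 CPM in cTECs and 105.1 CPM on plate SCGC1373, 48.1 on plate SCGC1379, 51.9 on plate SCGC1380 and 53.9 on plate SCGC1381 (log2 3.61). Meis1, Eya1, Isl1 and Pax1, developmental factors of the pharyngeal region, followed at log2 3.38, 3.02, 2.95 and 2.77. Pax1 missed the fold with DESeq2 size factors, and Pax1 and Eya1 missed it among cells with Xist and without Y-linked reads. Foxn1 itself had 260.7 CPM in cTECs and 48.9, 102.6, 75.7 and 112.001 CPM on the plates, with a log2 difference of 1.58 and every plate below the cTECs, past 4-fold only on plate SCGC1373. Thinned shares of cells with a Foxn1 read were 66.9% and 62.6%. Ehf and Grhl3, factors of epithelial differentiation, were the ones higher in mTEChi cells (log2 -3.13 and -3.46).

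Signalling genes of the Notch, Wnt, BMP and FGF pathways showed 6 of 31 higher in cTECs and 2 higher in mTEChi cells, and 26 of the 31 had a positive difference (median log2 1.46). Fgfr2, the receptor for the epithelial growth factor FGF7, had 333.1 CPM in cTECs and 38.2, 21, 19.6 and 11.2 CPM on the plates (log2 3.94). Bmp4, named above, was also among them. The Notch ligands Jag2 and Dll1 and the Notch target Hey1 were higher by 3.80, 3.09 and 3.55, and Wnt4, a Wnt ligand known to support Foxn1 expression, by 3.20. Bmp2 and Wnt10a were the ligands higher in mTEChi cells (log2 -3.64 and -2.997). Dll1 and Wnt10a missed the fold after thinning, and Wnt10a was at -1.35 against the WT mTEChi bulk libraries, used in place of the single cells. Jag1, Bmpr1a and Id3 had differences above 2 against the sum but not against every plate, at 2.24, 2.36 and 2.30.

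The regulators of mTEC maturation included 4 of 19 that were higher in mTEChi cells and none higher in cTECs (median log2 -1.13). Fezf2, the second regulator of tissue antigens, had 10.8 CPM in cTECs and 467.6 CPM on plate SCGC1373, 651.4 on plate SCGC1379, 488.8 on plate SCGC1380 and 488.5 on plate SCGC1381 (log2 -5.46). Spib and Irf4, factors also known from lymphocytes, had 16.9 against 136.8 to 298.1 CPM and 3.57 against 26.2 to 56.9 CPM. For these genes and for Aire, all plates lay above the cTECs, as the rule for calling a gene required. The NF-kB subunits were closer: Relb and Nfkb2, the alternative-pathway pair, differed by -1.65 and -1.33, while Nfkb1 went the other way at 410.96 CPM in cTECs and 91.8 to 143.2 CPM on the plates (log2 1.95). Nfkbia, the inhibitor induced by NF-kB, had a log2 difference of -2.41 and missed the fold on plate SCGC1373. The kinases Map3k14 and Chuk and the adaptor Traf3 differed by 0.11, 0.37 and 0.47.

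Of 16 surface receptors, costimulatory ligands and other surface genes of mature mTECs compared, 10 were higher in mTEChi cells and none in cTECs (median log2 -3.32). Tnfrsf11a, the receptor RANK, had 10.3 CPM in cTECs and 131.4 CPM on plate SCGC1373, 175.8 on plate SCGC1379, 188.3 on plate SCGC1380 and 189.4 on plate SCGC1381 (log2 -3.97), and Cd40 had 28.7 against 182.97 to 480.4 CPM (log2 -3.72). Ltbr, the lymphotoxin beta receptor, leaned to cTECs at 121.3 CPM against 14 to 45.4 CPM (log2 2.45) and missed the fold on plate SCGC1373. Il2rg, the common cytokine receptor chain, had 6.63 against 118.3 to 479.9 CPM (log2 -5.57). Cd80 was higher in mTEChi cells (log2 -3.47), whereas Cd86, its partner ligand of CD28, differed by -1.51 with 16 CPM in cTECs inside the plate range of 12.9 to 58.8 CPM and 84.3% of its cTEC reads from 1 cell. Tnfrsf11b, the soluble RANKL decoy osteoprotegerin, Pdcd1lg2 (PD-L2), Tnfsf9 (the ligand of 4-1BB), Ly6d and the tight junction genes Cldn3 and Cldn4 were the others higher in mTEChi cells. Epcam, the pan-epithelial surface marker, had 614.6 CPM in cTECs and 966.4 CPM in mTEChi cells (log2 -0.65). In the WT mTEChi bulk libraries, made from about 1000 cells each, Cldn4 had only 4.12 CPM against 255.1 in single mTEChi cells.

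Of 17 genes of the MHC class II pathway compared, 1 was higher in cTECs and 2 were higher in mTEChi cells (median log2 -0.86), and the class II chains themselves were not among them. Over all compared genes, 4.65% and 7.32% were higher in these directions. H2-Aa, H2-Ab1, H2-Eb1 and the invariant chain Cd74 had log2 differences of -1.32, -0.86, -1.16 and -0.60, and all 4 were under 4-fold. Cd74 had 12335 CPM in cTECs and 23024, 14519, 19722 and 17695 CPM on plates SCGC1373, SCGC1379, SCGC1380 and SCGC1381. Ctss, cathepsin S, the invariant chain protease of mTECs and antigen-presenting cells, had 21.4 CPM in cTECs and 234.1 CPM on plate SCGC1373, 747.8 on plate SCGC1379, 562.2 on plate SCGC1380 and 602.5 on plate SCGC1381 (log2 -4.63). Ctss and Ctsl thus stood on opposite sides, each past 4-fold on every plate. Ifi30, a lysosomal thiol reductase, was also higher in mTEChi cells (log2 -3.04). H2-Oa and H2-DMb2, chains of the peptide editors, had log2 differences of -2.27 and -2.07 and missed the fold on plate SCGC1373. Ciita, the class II transactivator, was at 362.7 CPM in cTECs and 158.4 to 205.8 CPM on the plates (log2 0.99). The gene higher in cTECs was Rfxap, a subunit of the RFX complex (log2 2.50), and this call was lost with DESeq2 size factors, with the mean of each cell's CPM and against the WT mTEChi bulk (log2 0.66). Against the bulk Ifi30 was at -1.82 and also missed the fold.

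The MHC class I pathway had 1 of 24 genes past the fold, H2-Q7, a nonclassical class I gene of a family with near-identical copies (log2 -3.79, and -1.60 against the WT mTEChi bulk, under the fold), and a median log2 difference of -0.36. Over all compared genes, 12% were past the fold in either direction. B2m, the light chain of class I, had 6161 CPM in cTECs and 14060.5 to 19282 CPM on the plates (log2 -1.47). The log2 differences of H2-K1 and H2-D1 were -0.91 and -1.07, and those of the proteasome activators Psme1 and Psme2 were -1.64 and -1.96. The peptide transporter genes Tap1 and Tap2 leaned slightly to cTECs at 0.49 and 0.93.

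**Figure D4:**
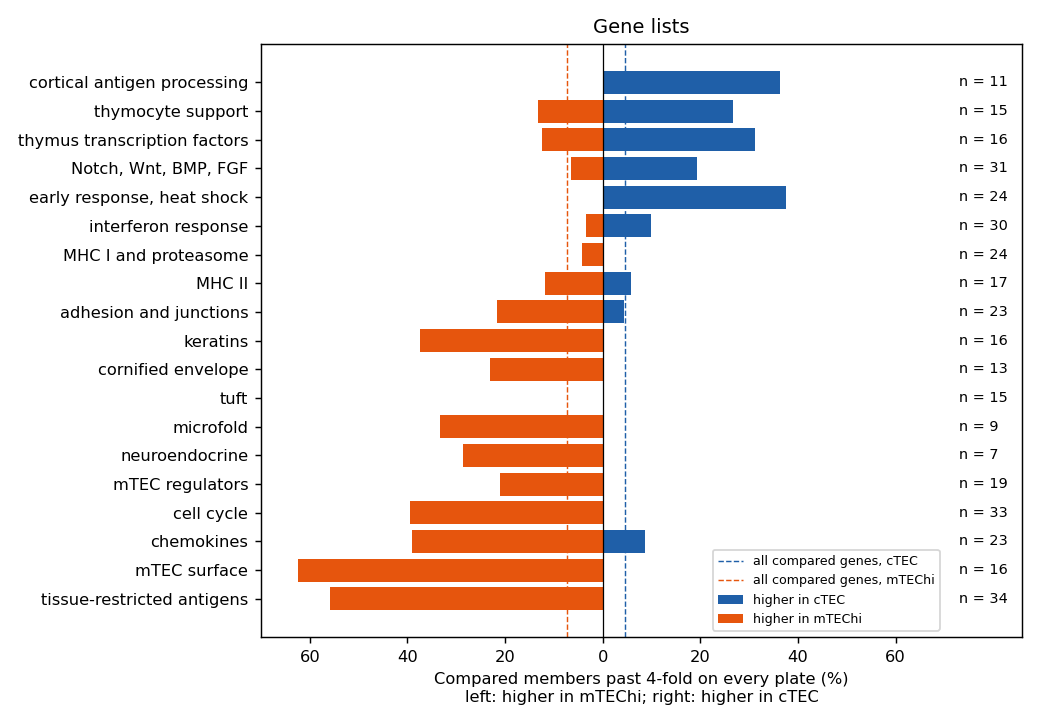
Share of the compared members of each gene list (n at right) that were past 4-fold on every plate, to the right for members higher in WT cTECs and to the left for members higher in WT mTEChi cells, with dashed lines at the shares of all compared genes, 4.65% and 7.32%. Cortical antigen processing and early response genes extend only to the right, tissue-restricted antigens, mTEC surface genes and cell cycle genes only to the left, and tuft genes have no bar.

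Tissue-restricted antigens, genes otherwise confined to organs such as gut, liver, pancreas and mammary gland, were low in cTECs. Of 34 compared, 19 were higher in mTEChi cells and 0 in cTECs (median log2 -5.50). Most of the 34 reached the 5 CPM filter only through mTEChi cells, which makes their differences negative and lowers the median. The list was also chosen with earlier results of these data known. Each gene's highest cell was then left out of the cTECs, the mTEChi sum and each plate separately. In that setting 13 of these 19 were still past the fold on every plate, and Csn1s2a, Dcpp1, Fabp2, Gcg, Ppy and Reg3b were not. Summed over the list, cTECs had 138.5 CPM and the mTEChi plates 4031 to 10752 CPM. Csn2, the milk protein beta casein, whose gene is known to depend on Aire, had 12.2 CPM in cTECs and 996.5 CPM on plate SCGC1373, 1298 on plate SCGC1379, 1409 on plate SCGC1380 and 2428 on plate SCGC1381 (log2 -6.93). Reg3g, an antimicrobial lectin of the gut, had 13.8 CPM in cTECs and 1124, 6635, 1833 and 4032 CPM on the plates (log2 -7.81). Cdx1, a transcription factor of the intestine, had 4.07 CPM against 179.1 to 465.01 CPM (log2 -6.01). For these 3 genes all 4 plates lay above the cTECs, as the rule for calling a gene required.

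Antigens differed in how many mTEChi cells carried them. After thinning, a read of Reg3g, Csn2, Cdx1 or S100g, a calcium-binding protein of the gut, was found in 75.2%, 74.8%, 74.1% and 59.8% of mTEChi cells and in 4.41%, 2.94%, 2.94% and 2.21% of cTECs. Others were read in few cells: Apoa4, an intestinal apolipoprotein, in 25.5%, Tff3, a gut peptide, in 17.5%, Gcg, the glucagon gene, in 8.04% and Ins2, the insulin gene, in 4.55%. Low-share antigens varied between plates, with Ins2 at 7.96, 45.1, 6.29 and 0.668 CPM and Ttr, the thyroid hormone carrier of liver, at 0, 4.42, 90.2 and 195.5 CPM, and neither passed the fold on every plate. A single cell gave 92% of the mTEChi reads of Reg1, a pancreatic lectin. Bpifa1, an airway protein, had 66.6 CPM in cTECs, of which 99.1% came from 1 cell.

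Counted per cell, of 43 listed antigens the thinned mTEChi cells had a median of 6 with a read (range 0 to 25) and medians of 5 to 7 on the plates. The thinned cTECs had a median of 0 (range 0 to 12). No antigen was read in 69.5% of cTECs and 2.45% of mTEChi cells, against 49.3% and 1.75% before thinning. The total number of genes went the other way: at 50000 counts, a cTEC had a median of 4999.5 genes (quartiles 4509 and 5380) and an mTEChi cell 4419.5 (3739 and 4878), with plate medians of 4243 to 4729. All 4 plate medians were below that of the cTECs. mTECs are known for transcribing an unusually large part of the genome.

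**Figure D5:**
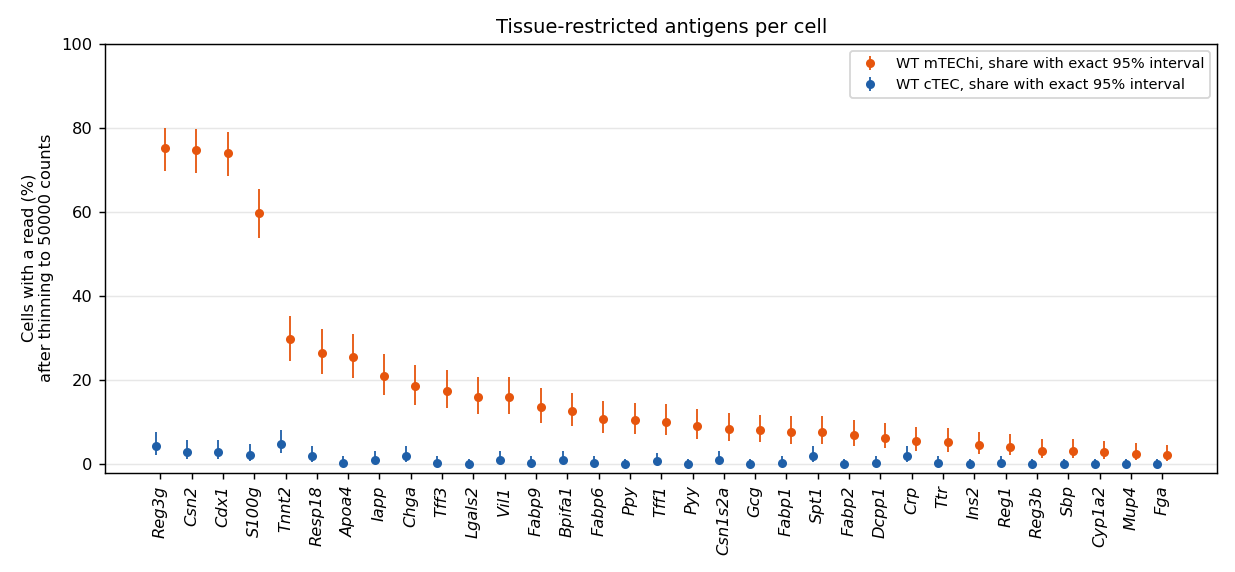
Share of WT mTEChi cells (orange) and WT cTECs (blue) with a read of each of the 33 compared tissue-restricted antigens with a negative log2 difference (lower in cTECs), after thinning each cell to 50000 gene counts, with exact 95% intervals that cover counting error only. Reg3g, Csn2, Cdx1 and S100g were read in 59.8% to 75.2% of the mTEChi cells, and the next, Tnnt2, in 29.7%.

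In the sums, the keratin pairs best known from cortex and medulla differed by under 2-fold, but the plates did not agree for Krt5. Krt8 and Krt18, the simple-epithelial pair known from cTECs, differed by -0.13 and 0.996. Krt5 and Krt14, the basal pair known from the medulla, differed by 0.25 and -0.38. Over the alternative settings, the differences ranged from -0.27 to 1.57 for Krt8 and from 0.75 to 2.21 for Krt18. For Krt5 they ranged from -0.15 to 2.21, and for Krt14 from -0.60 to 1.68. Krt5 had 574.4 CPM in cTECs and 2011 CPM on plate SCGC1373, 79.4 on plate SCGC1379, 178.5 on plate SCGC1380 and 182.9 on plate SCGC1381, so plate SCGC1373 stood alone above the cTECs, and 47.1% of all mTEChi reads of Krt5 came from 1 cell. Other keratins of the same kinds leaned to mTEChi cells without passing on every plate: the simple keratin Krt19 differed by -2.77 and the basal keratins Krt15 and Krt17 by -4.41 and -1.76. Krt15 had 1.25 CPM in cTECs and 11.7, 145.96, 2.05 and 51.7 CPM on the plates, which lay far apart. The 6 of 16 keratins higher in mTEChi cells were Krt13, Krt16, Krt20, Krt23, Krt77 and Krt79, and none was higher in cTECs (median log2 -3.27). Krt13 and Krt79 missed the fold on at least 1 plate without the highest cell of each group and plate. Krt16 missed it after thinning and Krt77 with the stricter cell filter. With a pseudocount of 10 CPM, 0 of the 6 stayed past the fold. Krt20, of the gut lining, and Krt77, of the epidermis, had 97 and 53.9 CPM in mTEChi cells and 1.02 and 0.181 in cTECs. From the cornified envelope of skin, 3 of 13 genes were higher in mTEChi cells: Sprr1a, a small proline-rich protein (4.57 against 90.2 to 254.6 CPM), Flg, filaggrin, and Dsg1a, a desmoglein. Flg missed the fold without the highest cell of each group and plate.

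Among genes known from immature or basal mTECs, Tnfrsf19, a receptor of the TNF family, was higher in cTECs (154.9 CPM against 0.0637 to 15.2 CPM, log2 3.95), as 1 of 12. Of all compared genes 4.65% were, so the count describes this gene and not the list.

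Mimetic mTECs, which copy other epithelial lineages, left uneven traces on the plates. No tuft gene of 15 compared passed the fold on every plate, although 14 had a negative difference (median log2 -2.96). Members under 5 CPM in cTECs, Trpm5 among them, entered only through their mTEChi level, which fixed their negative sign. Trpm5, the taste channel of tuft cells, had 0.196 CPM in cTECs and 0.127 CPM on plate SCGC1373, 0.884 on plate SCGC1379, 2.08 on plate SCGC1380 and 48.4 on plate SCGC1381, and Alox5ap, of leukotriene synthesis, had 0, 1.05, 0 and 142.8 CPM on the same plates. Plate SCGC1381 stood apart, and 66.5% of the mTEChi reads of Trpm5 and 65.8% of those of Alox5ap came from 1 cell. From microfold cells, 3 of 9 genes were higher in mTEChi cells: Gp2, a bacterial receptor (0.905 against 13.1 to 270.7 CPM), Pglyrp1 and the chemokine gene Ccl9. From neuroendocrine cells, Insm1, a transcription factor of endocrine lineages (2.09 against 20.7 to 62.2 CPM), and Resp18, a secretory granule protein, were higher as 2 of 7.

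Claudins stood on both sides. The claudins Cldn3, Cldn4, Cldn7, Cldn9 and Cldn23 were higher in mTEChi cells, with Cldn7 at 8.33 CPM against 133.1 to 340.7 CPM (log2 -4.55). Against the WT mTEChi bulk 2 of these 5 calls held, and Cldn4, Cldn7 and Cldn9 were at 1.14, -1.93 and -0.50. Cldn8, a claudin of kidney and gut, was higher in cTECs at 71.5 CPM against 0 to 8.92 CPM (log2 4.26). The desmosome genes Dsp and Jup and the cadherins Cdh1 and Cdh3 leaned to cTECs by 2.17, 1.88, 1.13 and 2.72 without passing on every plate. Over 23 genes the counts were 1 and 5, with a median log2 difference of 0.40.

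Cell cycle genes leaned to mTEChi cells, and how many passed the fold depended on the processing. Of 33 compared, 13 were higher in mTEChi cells and 0 in cTECs, and 31 had a negative difference (median log2 -2.42). Of the 13, 5 were still past the fold on every plate after thinning, 6 with the mean of each cell's CPM and 6 against the WT mTEChi bulk. With a pseudocount of 10 CPM 1 of the 13 held, and at an 8-fold threshold 0 did. Aurka, Birc5, Bub1b, Ccna2, Nusap1, Rrm2, Top2a and Tpx2 were lost after thinning. Ube2c and Ccnb2, which act at mitosis, had 9.17 and 6.04 CPM in cTECs against 53.9 to 215.4 CPM and 47.2 to 133.9 CPM on the plates, and Ube2c was at -0.57 against the bulk. Top2a, the topoisomerase of dividing cells, had 19.6 CPM against 177.9, 160.1, 179.9 and 103.3 CPM on plates SCGC1373, SCGC1379, SCGC1380 and SCGC1381 (log2 -2.91). Mki67, the proliferation marker Ki-67, was read in 11.8% of thinned cTECs and 28.7% of thinned mTEChi cells, and its log2 difference of -2.05 missed the fold on 2 plates. The replication licensing genes Mcm4 and Mcm6 differed little, at 0.31 and -0.42.

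Several early response genes were higher in cTECs. Of 24 early response and heat shock genes compared, 9 were higher in cTECs and 0 in mTEChi cells (median log2 1.33). Fosb and Fos, subunits of the AP-1 factor, had 184.6 and 972.9 CPM in cTECs against 0.511 to 6.88 CPM and 27.8 to 124.2 CPM on the plates. Egr1, an immediate early zinc finger factor, had 872.3 CPM against 20.6, 103.1, 61.2 and 18.2 CPM on the plates in order (log2 4.09). Atf3, Btg2, Ier3, Klf2, Nr4a1 and Zfp36 were the others. Zfp36 (log2 2.25) lost the call under 10 of the alternative settings, among them DESeq2 size factors and thinning, which left 8 of 24. The heat shock genes Hspa1a, Hspa8 and Hsp90aa1 were not past the fold (log2 0.07, 0.85 and 0.48). In the Eed pair Fos and Egr1 also stood higher in cTECs, by 3.33 and 3.66. These genes are known to respond to tissue dissociation, and the part of dissociation in these values was not tested.

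Interferon-stimulated genes leaned to cTECs, with 25 of 30 positive (median log2 1.33), 3 past the fold there and 1 in mTEChi cells. Over all compared genes, 4.65% and 7.32% were past it in these directions. Isg15, a ubiquitin-like antiviral protein, had 167.7 CPM in cTECs and 15.4 CPM on plate SCGC1373, 3.59 on plate SCGC1379, 4.5 on plate SCGC1380 and 5.78 on plate SCGC1381 (log2 4.47). Ifi44 and Gbp2 were the others higher in cTECs, by 3.14 and 2.95. Ifitm1, of the membrane antiviral family, was higher in mTEChi cells (log2 -4.10), while its relatives Ifitm2 and Ifitm3 differed by 0.80 and 1.54. Plate SCGC1373 was the highest mTEChi plate for Ifit3, Irf7 and Ifitm3, at 128.2, 177.8 and 2255 CPM.

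Of 10 PRC2 genes compared, 1 was past the fold, close to the 12% of all compared genes past it in either direction. Eed itself, floxed in all the mice, had 34.2 CPM in cTECs and 29.8 to 45.8 CPM on the plates (log2 -0.20). Ezh2, the methyltransferase of dividing cells, was lower in cTECs at 14.1 CPM against 66.2, 80.6, 71.5 and 41.9 CPM (log2 -2.11) and missed the fold on plate SCGC1381. Ezh1, its counterpart in resting cells, leaned the other way (log2 1.59), and Phf1, an accessory subunit, was the 1 of 10 genes past the fold, higher in cTECs (33.4 against 1.26 to 6.62 CPM), and it missed the fold after thinning. Suz12 differed by 0.27.

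Markers of cells that could accompany a sort were read for both groups. For the lists below, 7.32% of all compared genes were higher in mTEChi cells and 4.65% in cTECs. Of the thymocyte markers, 1 of 16 compared, Ikzf1, was higher in mTEChi cells, close to the share of all compared genes. The summed level of the list was 97.4 CPM in cTECs and 114.1 to 683.1 on the plates. Cd3e, a defining subunit of the T cell receptor complex, had 0.985 and 2.89 CPM. Of B cell genes, 4 of 10 were higher in mTEChi cells (Blk, Cd79b, Fcer2a and Igkc), with summed levels of 29.2 CPM in cTECs and 186.8 to 544.2 on the plates. Of myeloid genes, Laptm5, a lysosomal protein of blood cells, and Lyz2, a macrophage lysozyme, were higher in mTEChi cells, as 2 of 13, with 14.5 against 503.8 to 997.2 CPM and 9.7 against 1048 to 2418 CPM. The defining myeloid genes Csf1r, Itgam and Tyrobp had 22, 10.5 and 11.4 CPM in mTEChi cells. These 3 were also lower in cTECs (log2 -3.73, -3.13 and -3.08) but missed the fold on at least 1 plate. Of the 13 myeloid genes, 12 had a negative difference and 1 a positive one (median log2 -2.99). After thinning, Laptm5 was read in 83.6% of mTEChi cells and Tyrobp in 7.34%, and the part of leukocytes in these sums was not tested beyond leaving out cells with Ptprc. Leaving those out gave 678 genes higher in cTECs and 1039 in mTEChi cells.

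The fibroblast list, which bears on the matrix genes at the head of the cTEC side, had 3 of 13 genes higher in cTECs and 3 in mTEChi cells, with summed levels of 3137 CPM in cTECs and 545.8 to 1099 on the plates. Over all compared genes the shares in these directions were 4.65% and 7.32%. Dcn, decorin, had 1492 CPM in cTECs and 89.6, 72, 209.001 and 112.6 CPM on the plates, and Mgp, matrix Gla protein, had 748.96 against 7.02 to 88.7 CPM. A read of Dcn was found in 86% of thinned cTECs and of Mgp in 84.2%. Col1a2, a collagen chain, was the other gene higher in cTECs, at 0.79 and under the fold against the WT mTEChi bulk. Of the 13 genes, 10 had a positive difference and 3 a negative one (median log2 1.17). Col3a1, Col6a1, Col6a2 and Fbln1 leaned to cTECs by 1.17, 1.78, 1.64 and 1.98, under 4-fold. Pdgfra and Col1a1, both known from fibroblasts, were at 0 and 0.406 CPM in cTECs, and Col1a1, Pdgfrb and Vim were higher in mTEChi cells. Col1a1 missed the fold without the highest cell of each group and plate, and Pdgfrb missed it after thinning and with the mean of each cell's CPM. Summed in the Eed cTECs, the list had 6333 CPM. No endothelial gene of 6 and no erythroid gene of 3 compared passed the fold, where 12% of all compared genes did in either direction. Each of these genes had a negative difference, but both lists were low in cTECs. The erythroid list summed to under 5 CPM in cTECs, so its compared genes entered only through mTEChi cells and had to be negative. With an endothelial sum of 14.5 CPM in cTECs, most of the endothelial genes entered the same way. The endothelial and erythroid sums were 14.5 and 2.1 CPM in cTECs, and 45.1 to 153.2 and 7.32 to 69.6 CPM on the plates.

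The same comparison was made between the kept Eed cTECs and 547 Eed mTEChi cells of both reporter gates, and it shares no cell with the WT comparison. The Eed mTEChi cells lay on the same 4 plates as the WT mTEChi cells. Here too the cTECs and the mTEChi cells were separate sets, so set and cell type cannot be told apart. Of the 664 genes higher in WT cTECs, 65.7% were also at least 4-fold higher against the Eed mTEChi sum, which is 37.1% of the 1176 genes (8.24%) past the fold there. Of the 1045 higher in WT mTEChi cells, 843 (80.7%) were, which is 40.5% of 2080 (14.6%). At least 4-fold in the opposite direction were 1 and 7 genes. The cortical peptide machinery stood closer together in the Eed pair: the log2 differences of Prss16, Psmb11 and Ctsl were 1.11, 1.46 and 1.33, against 5.66, 4.96 and 3.67 in WT. Eed cTECs had 218.8, 34.3 and 1541 CPM of the 3 genes. Cxcl12 and Trp63 had log2 differences of 3.70 and 2.62, and Aire, Fezf2 and Csn2 had -9.66, -5.25 and -9.67. Whether the WT and Eed differences are unlike beyond the spread between animals was not tested, since no animal is named.

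The WT mTEChi bulk libraries, which share no cell with the single cells, give levels of the medullary genes in another preparation. In bulk, fewer cells of a type and less RNA per cell cannot be told apart. Aire had 206.5 CPM in bulk, with a range of 122.7 to 353.4 over the libraries, against 954.03 in single mTEChi cells. Csn2 had 1121 against 1604, Reg3g 2570.0 against 3305 and Ctss 411.2 against 553.6 CPM. Psmb11 had 6.89 CPM in bulk (0 to 19.5), so at least 1 bulk library held no read of it. Fezf2 had 520.7 CPM in bulk and 517.9 in single cells, so it lay close, while Aire was lower in every bulk library than in the single-cell sum.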

How the data were processed

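Per the labels' protocols, thymic tissue was digested with Liberase and DNaseI, TECs were sorted, and polyadenylated RNA of single cells was amplified by SMART-seq2. Build mm10 and the tools HISAT 0.1.6, HTSeq and Trimmomatic come from the submitters' processing notes, which state no role for them. The authors deposited whole-number read counts per gene without molecular identifiers, and no source used here states the strand setting, so overlapping genes and near-identical copies cannot be told apart. The 17 columns of the table that match no sample used here were left out.

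ERCC and summary lines were removed, cells with under 50000 gene counts or 1000 genes were dropped, which kept 272 of 384 WT cTECs, 286 of 496 WT mTEChi cells and 333 Eed cTECs, and counts were summed per group and plate (python 3.11.15). CPM were computed from these sums, and log2 differences used a pseudocount of 1 CPM over genes at 5 CPM or more in either group. Mitochondrial and ribosomal protein genes stayed in the totals and out of the ranking. Each GEO sample is 1 cell and no animal is named, so no p-value is given. Poisson intervals of summed counts and Clopper-Pearson intervals of shares cover counting error only, at 95%. Thinning drew 50000 gene counts from each cell. No doublet caller was run. Coordinates, gene types and promoter windows came from RefSeq GRCm38.p6, the assembly mm10 stands for, and 33739 gene names matched it. Of the genes higher in cTECs, 394 had a window. The scripts were tested on simulated data. TMM (edgeR 4.0.16) and DESeq2 1.42.0 size factors served as alternative scalings.

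Members and gene lists were chosen with earlier results of these data known. The named genes were the 15 furthest in each direction among those past the fold, without ribosomal, mitochondrial, Gm-number, Rik, Xist and Y-linked genes, and the members of the lists. Psmb5, Psmb8, Psmb11, Ccl25, Cxcl12, Ccl21a, Ccl22 and Ccl17 were named in any case. Gm10123 was named after its values were seen. A few listed genes counted in the lists are not reported here by name.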

Additional observations from a re-analysis of the deposited data

Results flagged for a closer look

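In 3 wells labelled as without template, A1, A2 and A3 of plate SCGC1380, gene counts were 51838, 73567 and 67466. The other 11 such wells held far fewer. The 3 wells held 35, 0 and 3 counts of Aire, and they entered no comparison.

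Cldn9, a claudin, was lower in cTECs than in mTEChi cells in WT (log2 -3.70) and higher in Eed cTECs than in Eed mTEChi cells (log2 2.51). The levels were 0.268 and 15.5 CPM in WT and 60.5 and 9.82 CPM in the Eed strains. The difference between the strains was not tested.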

How the results depend on the processing

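The counts of 664 genes higher in cTECs and 1045 higher in mTEChi cells moved by over 1.5 times under 4 settings. As shares of the 14279 genes compared, 4.65% and 7.32% became 1.81% and 1.88% with a pseudocount of 10 CPM, 14.8% and 13.8% with a 2-fold threshold, and 1.59% and 3.19% with an 8-fold threshold. The WT mTEChi bulk in place of the single cells, an alternative chosen after seeing the data, gave 15% and 20.2%, without a requirement over plates. With that bulk, 58 of the named genes changed sign, most of them short of the fold in the main comparison. Of the genes past the fold, Cldn4 was higher in cTECs by 1.14 and Plk1 by 0.53 on the log2 scale. Both were lower in cTECs against single cells, and the cause was not tested. Other genes negative in the main comparison turned positive under at least 1 alternative setting. Their highest differences were 0.84 for H2-Ab1, 0.95 for H2-D1, 0.33 for H2-K1 and 0.62 for Psmb5. H2-Aa and Cd74 stayed negative, at -0.34 and -0.48 at the highest. Leaving out 1 plate at a time gave 5.24% to 6.67% and 8.06% to 10.4%, where fewer plates had to pass. TMM scaling gave 760 and 999, DESeq2 size factors 609 and 1115, the mean of each cell's CPM 704 and 948, and thinning 714 and 939. Leaving out each gene's highest cell from the cTECs, the mTEChi sum and each plate, also chosen after seeing the data, gave 960 and 872. TMM moved the median of all genes by 0.115 on the log2 scale. Of the named genes past the fold, 99.3% stayed past it with TMM, 97.4% with DESeq2 size factors, 90.2% with the mean of each cell's CPM, 90.8% without the highest cell, 90.2% against the bulk, 88.9% after thinning, 57.5% at 8-fold and 56.9% with a pseudocount of 10 CPM. Of the 17 lost after thinning, 8 were cell cycle genes. Cells with Y-linked reads, 7 cTECs and 10 mTEChi cells with 0 on plate SCGC1381, were too few to give values. Set and cell type cannot be told apart, and depth limits genes near 5 CPM. No paired analysis was possible because the labels give the cells well names and no replicate numbers, and no test was run.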
